A study of Mus musculus with 36 samples.

Results

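The Shank, Homer and Dlgap genes encode scaffold proteins of the postsynaptic density, and all 10 were measured: Shank1, Shank2, Shank3, Homer1, Homer2, Homer3, Dlgap1, Dlgap2, Dlgap3 and Dlgap4. They were taken by symbol from a table of 78298 mouse gene identifiers, 51498 of which had a symbol. Bulk RNA of hippocampal tissue was sequenced in 36 libraries of 6 groups, with 3 males and 3 females per group. Mice were wild-type (WT), Fmr1-/- (Fmr1 KO) or Sko-/- (Shank3 KO), and within each genotype they received vehicle or cannabidiol (CBD), a plant cannabinoid, under the skin for 7 days. CBD was dosed at 5 mg/kg in males and 50 mg/kg in females, so sex and dose cannot be told apart in treated mice. The sources used here do not name the knockout alleles, strain background, age or litters. Of the WT animals, 11 of 12 carried the code letters of the Fmr1 KO animals and WT CBD replicate 1 carried others. No WT animal carried the letters of the Shank3 KO animals, so line and genotype cannot be told apart in comparisons of Shank3 KO with WT. Each library had its own animal code and was taken as 1 animal.

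The 3 families form layers of 1 lattice beneath excitatory synapses. Dlgap proteins (also named SAPAP or GKAP) bind the guanylate kinase domain of PSD-95, Shank proteins bind Dlgap proteins through their PDZ domain, and Homer proteins bind a proline-rich motif of Shank and of group I metabotropic glutamate receptors. Long Homer proteins form multimers that tether those receptors to calcium stores, whereas the short activity-induced product Homer1a lacks the coiled coil and uncouples them. Loss of SHANK3 in people causes Phelan-McDermid syndrome, which often includes autism.

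Of the 10 genes, 7 matched the RefSeq promoter table (GRCm38.p6), with 10 windows of 250 bases before to 50 bases after an annotated start. The Homer1 window is shown because Homer1 varied with the immediate early genes described below, and capitals mark the letters TGACGT, the core of the element bound by CREB-family factors. It lies on the plus strand at chr13:93303507-93303806.
Homer1: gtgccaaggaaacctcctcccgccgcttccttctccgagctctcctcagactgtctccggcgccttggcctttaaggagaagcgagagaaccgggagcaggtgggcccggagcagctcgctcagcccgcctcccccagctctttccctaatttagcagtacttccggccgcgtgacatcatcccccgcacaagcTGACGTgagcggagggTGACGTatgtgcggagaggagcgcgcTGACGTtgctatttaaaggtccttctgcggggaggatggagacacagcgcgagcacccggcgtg
The letters were searched on both strands and occurred 3 times, at positions -56, -40 and -14 counted from the base after the 250 upstream bases. Of 32851 promoter windows in the table, 7.51% held TGACGT at least once and 0.201% held it 3 times or more. None of the other 9 windows of these genes held it, and no window of these genes held the longer palindrome TGACGTCA, which 1.79% of all windows held. The Shank3 window is shown because Shank3 was the member called between genotypes. It lies on the plus strand at chr15:89499358-89499657, and capitals mark the match to GCGGGGGCG, the motif of the activity-induced Egr factors, which sits on the reverse strand.
Shank3: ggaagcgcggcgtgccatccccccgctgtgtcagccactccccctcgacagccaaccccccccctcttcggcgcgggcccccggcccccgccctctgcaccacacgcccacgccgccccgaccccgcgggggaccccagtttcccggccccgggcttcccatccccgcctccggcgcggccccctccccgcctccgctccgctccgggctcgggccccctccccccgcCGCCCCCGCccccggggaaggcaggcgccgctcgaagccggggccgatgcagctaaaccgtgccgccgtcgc
G and C made up 81% of the Shank3 window and 63% of the Homer1 window. Of all windows, 2.91% held GCGGGGGCG on either strand. These matches describe the letters and were not tested as binding sites.

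Libraries held 11655697 to 33228089 counts, and levels are given as CPM, counts scaled to the TMM-adjusted library size. Gene lengths deposited beside the counts equalled the whole annotated span for all 10 genes, so a count was read as covering introns and exons together, and isoforms such as Homer1a were not resolved. Fmr1 was lower in Fmr1 KO libraries, at 30.7 to 44.8 CPM against 63.5 to 80.9 CPM in WT. Markers of striatal medium spiny neurons, cells that the hippocampus lacks, had a mean log2(CPM + 1) over 4 in 7 libraries: Shank3 KO vehicle replicates 2, 3 and 4, Shank3 KO CBD replicate 2, WT CBD replicates 3 and 6 and Fmr1 KO vehicle replicate 4. In bulk RNA, fewer cells of a type and less RNA per cell cannot be told apart.

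Shank3 was the only one of the 10 scaffold genes called between genotypes, and in Shank3 KO mice it fell to 0.632 of its WT level over both treatments (95% interval 0.561 to 0.711). In WT vehicle the 6 libraries ran from 234.5 to 293.0 CPM with a median of 267.4. In Shank3 KO vehicle they ran from 161.1 to 184.3 CPM with a median of 165.7. The highest knockout library lay below the lowest control library, so these groups did not overlap. In WT CBD the libraries ran from 196.2 to 390.6 CPM with a median of 278.4, and in Shank3 KO CBD from 153.3 to 218.3 CPM with a median of 168.9. Those groups overlapped through Shank3 KO CBD replicate 6, the highest knockout library, and WT CBD replicate 2, the lowest WT library. The log2 fold change was -0.66 ± 0.12 (SE) under vehicle (edgeR quasi-likelihood test, adjusted p = 0.0103). It was -0.67 ± 0.12 under CBD (edgeR, adjusted p = 0.00781). Averaged over treatments it was -0.66 ± 0.083 (edgeR, adjusted p = 1.24e-05, n = 12 per genotype). Under vehicle 1 of the 10 members was called, against 0.0378% of the 21172 genes tested. Under CBD 1 of 10 was called against 0.0425%, and over both treatments 1 of 10 against 0.0614%. Each time the 1 was Shank3 itself, the gene knocked out in these mice, and no other member was called. A gene was called at an adjusted p under 0.05.

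Between 153.3 and 218.3 CPM of Shank3 counts remained in each knockout library. Because counts span the gene body and the deleted part is not given, they do not show which exons the remaining RNA held. As a share of the counts of all 3 Shank genes, Shank3 made up 8.87% to 12.6% in Shank3 KO libraries with a median of 9.65%. In the other 24 libraries it made up 11.9% to 20.1% with a median of 14.5%. The ranges overlapped between 11.9% and 12.6%.

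**Figure D1:**
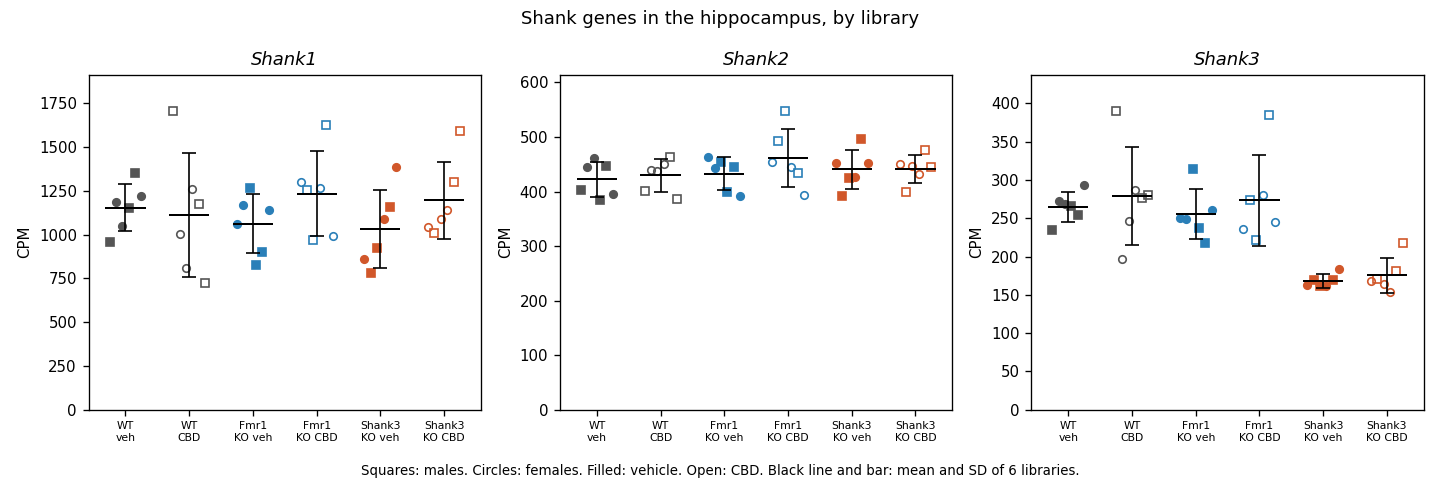
Shank1, Shank2 and Shank3 in CPM (y axis, from 0) for each of 36 libraries by genotype and treatment, with the mean and SD of 6 libraries per group in black. All Shank3 KO vehicle libraries lie at or below 184.3 CPM of Shank3, under the WT vehicle minimum of 234.5, while the 6 groups overlap for Shank1 and Shank2.

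In Fmr1 KO mice a change of Shank3 was not called. Shank3 in Fmr1 KO vehicle ran from 218.2 to 314.7 CPM with a median of 249.6, and in Fmr1 KO CBD from 221.8 to 385.5 CPM with a median of 259.0. Both groups overlapped their WT counterparts. The Fmr1 KO against WT log2 fold change of Shank3 was -0.04 ± 0.083 over both treatments (95% interval -0.21 to 0.13, edgeR adjusted p = 0.974). Shank3 KO against Fmr1 KO gave -0.62 ± 0.083 over both treatments (edgeR, adjusted p = 0.000117), with 1 of 10 members, Shank3 itself, called against 0.0378% of all genes. Under vehicle alone the same comparison gave -0.60 ± 0.12 with an adjusted p of 0.103 in edgeR, so 0 of 10 members were called against 0.00945% of all genes. There 2 of the 10 had an unadjusted p under 0.05, against 4.98% of all genes. DESeq2 (adjusted p = 0.00201) and limma voom (adjusted p = 0.000757) called Shank3 there. Shank3 KO against WT and against Fmr1 KO share the Shank3 KO libraries.

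The Shank3 difference had nearly the same size in each sex. It was -0.67 ± 0.11 in males (edgeR, adjusted p = 0.00983) and -0.65 ± 0.11 in females (edgeR, adjusted p = 0.0141). In males 1 of 10 members, Shank3 itself, was called against 0.0472% of all genes, and in females 1 of 10, again Shank3, against 0.0331%. The difference between the sexes was 0.02 ± 0.16 (95% interval -0.32 to 0.35, edgeR adjusted p = 1). Per-sex calls rested on 6 libraries per arm, and leaving out WT CBD replicate 1 raised the adjusted p in males to 0.0517. In females the adjusted p rose above 0.05 without WT CBD replicate 4 (0.0758), Shank3 KO vehicle replicate 1 (0.0598) or 4 (0.0808), or Shank3 KO CBD replicate 3 (0.0537) or 4 (0.0827). In males it also did so without Shank3 KO CBD replicate 2 (0.0534).

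Markers of several other tissues and cell types had values of 1 sign in Shank3 KO against WT under vehicle, where 49.9% of all genes were positive. Of the striatal markers 11 of 11 tested were positive, with a median log2 fold change of 1.75 and none called. Positive too were 5 of 5 thalamic (median 0.53), 5 of 5 ependymal (0.57), 9 of 9 choroid plexus (0.71), 10 of 10 oligodendrocyte (0.22) and 6 of 6 endothelial markers (0.19), while 0 of 9 dentate granule markers were (-0.43), with none of these called. The part of these lists other than the striatal one in the Shank3 result was not tested under vehicle, beyond the fit with striatal, choroid plexus and dentate scores as covariates, where Shank3 was -0.51 (edgeR, adjusted p = 0.151). The striatal list's mean log2(CPM + 1) ran from 2.46 to 5.80 in Shank3 KO vehicle and from 2.57 to 3.05 in WT vehicle libraries. Without the 7 libraries over 4, the Shank3 log2 fold change was -0.61 under vehicle (edgeR, adjusted p = 1, unadjusted p = 0.000735), -0.68 under CBD (adjusted p = 0.207) and -0.64 over both treatments (adjusted p = 0.00796). The size was thus similar without them, and the calls under each treatment alone were lost.

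Shank1 and Shank2, the paralogs that share the ankyrin, SH3, PDZ and SAM domains of Shank3, were not called in Shank3 KO. Shank1 is enriched at forebrain spines, and Shank2 is likewise linked to autism in people. Shank1 ran from 960.4 to 1351 CPM (median 1170) in WT vehicle and from 781.2 to 1388 CPM (median 1009) in Shank3 KO vehicle. In WT CBD it ran from 726.4 to 1708 CPM (median 1088), and in Shank3 KO CBD from 1012 to 1594 CPM (median 1116). These ranges overlapped in both treatments. Its Shank3 KO against WT log2 fold change over both treatments was -0.03 ± 0.12 (95% interval of the fold 0.829 to 1.16, edgeR adjusted p = 1). Shank2 held a narrower range, 384.3 to 461.8 CPM (median 423.5) in WT vehicle and 391.0 to 495.7 CPM (median 439.3) in Shank3 KO vehicle. Under CBD its WT libraries lay between 385.8 and 463.6 CPM and its Shank3 KO libraries between 399.2 and 475.7 CPM. Its log2 fold change over both treatments was 0.05 ± 0.053 (95% interval of the fold 0.961 to 1.11, edgeR adjusted p = 1). The summed level of Shank1 and Shank2 had a median of 1579 CPM in 12 WT libraries (1112 to 2110) and 1526 CPM in 12 Shank3 KO libraries (1172 to 2039). A rise of either paralog above 1.16-fold in Shank3 KO lay outside these intervals.

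**Figure D2:**
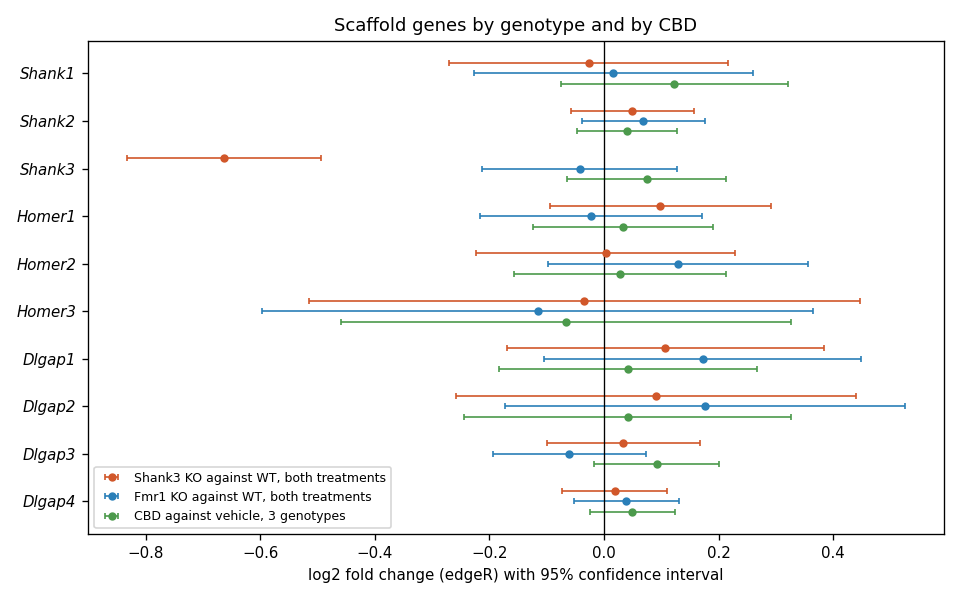
Log2 fold changes with 95% confidence intervals (x axis) for the 10 scaffold genes (y axis) in Shank3 KO against WT, Fmr1 KO against WT and CBD against vehicle. The Shank3 interval in Shank3 KO lies wholly below 0, and every other interval drawn includes 0.

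Homer1 encodes the most studied Homer scaffold and, as Homer1a, an immediate early product. It ran from 188.8 to 254.2 CPM (median 236.2) in WT vehicle and from 211.8 to 398.6 CPM (median 259.7) in Shank3 KO vehicle. In WT CBD it ran from 195.8 to 405.4 CPM (median 242.7), and in Shank3 KO CBD from 224.2 to 300.8 CPM (median 252.0). The ranges overlapped under both treatments, and 2 libraries stood well above the rest, Shank3 KO vehicle replicate 2 and WT CBD replicate 2. The Shank3 KO against WT log2 fold change was 0.28 ± 0.13 under vehicle (edgeR, unadjusted p = 0.0481, adjusted p = 0.853) and -0.08 ± 0.13 under CBD (edgeR, adjusted p = 1). Without Shank3 KO vehicle replicate 2 the vehicle value was 0.15 (adjusted p = 0.999). That library also had the highest striatal marker score, 5.80.

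The sexes differed in the direction of the Homer1 value, without a call. Homer1 in WT males was 213.7, 234.2 and 250.6 CPM under vehicle and 195.8, 214.7 and 227.0 CPM under CBD. In Shank3 KO males it was 256.4, 297.4 and 398.6 CPM under vehicle and 224.2, 255.9 and 300.8 CPM under CBD. The male vehicle groups did not overlap and the male CBD groups did. WT females had 188.8, 238.2 and 254.2 CPM under vehicle and 258.3, 292.5 and 405.4 CPM under CBD, and Shank3 KO females had 211.8, 248.1 and 263.0 CPM and 230.2, 250.9 and 253.1 CPM. The female vehicle groups overlapped, whereas every WT female given CBD lay above every Shank3 KO female given CBD. Each of these groups held 3 libraries, and the share of all genes that separate at that size was not counted. The log2 fold change was 0.37 ± 0.11 in males (edgeR, unadjusted p = 0.00159, adjusted p = 1) and -0.15 ± 0.11 in females (edgeR, adjusted p = 1). The female minus male difference was -0.52 ± 0.15 (edgeR, unadjusted p = 0.00173, adjusted p = 1), and 0 of 10 members were called for that difference against 0% of all genes. The highest Homer1 libraries, Shank3 KO vehicle replicate 2 (male, 398.6 CPM) and WT CBD replicate 2 (female, 405.4 CPM), both make that difference more negative. Without the 7 libraries with high striatal markers it was -0.44, and in males the value was 0.25. That fit left out the first of these libraries and kept WT CBD replicate 2. WT CBD replicate 2 also had the highest share of counts in intron-rich genes (described below), 17.7%, and a low CA3 marker score, 4.13. The difference without both libraries was not tested. Marker lists also had opposite signs in the sexes in Shank3 KO against WT. Of the thalamic markers 0 of 5 were positive in males (median log2 fold change -0.66) and 5 of 5 in females (0.57). Of the striatal markers 11 of 11 were positive in males (1.44) and 0 of 11 in females (-0.63), and of the oligodendrocyte markers 0 of 10 in males (-0.15) and 10 of 10 in females (0.21). No marker was called, and 48.8% of all genes were positive in males and 48.4% in females. The thalamic score ran from 4.53 to 7.53 in WT males, 4.58 to 5.84 in Shank3 KO males, 5.10 to 5.71 in WT females and 5.09 to 7.19 in Shank3 KO females. The part of the thalamic and oligodendrocyte markers in the Homer1 values was not tested.

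Homer2, a long-form Homer, did not separate the genotypes. It ran from 98.6 to 144.6 CPM in WT vehicle, 104.2 to 137.8 CPM in Shank3 KO vehicle and 100.4 to 182.3 CPM in Fmr1 KO vehicle. Its Shank3 KO against WT log2 fold change over both treatments was 0.00 ± 0.11 (95% interval of the fold 0.856 to 1.17). Homer3 was the sparsest member, with medians of 14.8 to 17.5 CPM across the 6 groups, and the widest interval. It ran from 8.93 to 24.1 CPM in WT vehicle and from 8.75 to 24.0 CPM in Shank3 KO vehicle, so the groups covered nearly the same range. Its log2 fold change over both treatments was -0.03 ± 0.24 (95% interval of the fold 0.700 to 1.36). WT CBD replicate 2 (3.95 CPM) and Fmr1 KO CBD replicate 3 (2.83 CPM) were far below the other libraries. The antisense gene Ddx49 overlaps Homer3 and held 8269 counts in all beside 15303 of Homer3. The sources used here name no strand setting, so reads of the shared stretch may be split or lost between them.

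Dlgap1 and Dlgap2 span the longest loci of the set, 852341 and 751816 bases. Dlgap1 links PSD-95 to Shank proteins, and Dlgap2 is its close paralog. Dlgap1 ran from 873.1 to 1983 CPM (median 1388) in WT vehicle and from 1289 to 1621 CPM (median 1465) in Shank3 KO vehicle. Dlgap2 ran from 466.8 to 1264 CPM (median 793.3) in WT vehicle and from 831.2 to 968.8 CPM (median 909.3) in Shank3 KO vehicle. For both genes the Shank3 KO vehicle range lay inside the WT vehicle range. The Shank3 KO against WT log2 fold changes over both treatments were 0.11 ± 0.14 for Dlgap1 (95% interval of the fold 0.889 to 1.30) and 0.09 ± 0.17 for Dlgap2 (0.837 to 1.36).

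Dlgap3, whose loss in mice causes compulsive grooming through striatal circuits, ran from 168.4 to 204.3 CPM (median 193.2) in WT vehicle and from 165.7 to 231.8 CPM (median 192.1) in Shank3 KO vehicle. Dlgap4 was the least variable member, at 202.2 to 228.9 CPM (median 220.1) in WT vehicle and 208.0 to 243.6 CPM (median 224.5) in Shank3 KO vehicle. Over all 36 libraries its coefficient of variation was 6.76%, against 33.1% for Homer3. The Shank3 KO against WT log2 fold change over both treatments was 0.03 ± 0.066 for Dlgap3 and 0.02 ± 0.045 for Dlgap4. On the log2 scale the 95% intervals were -0.10 to 0.17 and -0.07 to 0.11, the narrowest of the 10 beside that of Shank2. Over the 10 members 7 values were positive and 3 negative, with a median log2 fold change of 0.03, beside -0.01 for all genes tested.

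**Figure D3:**
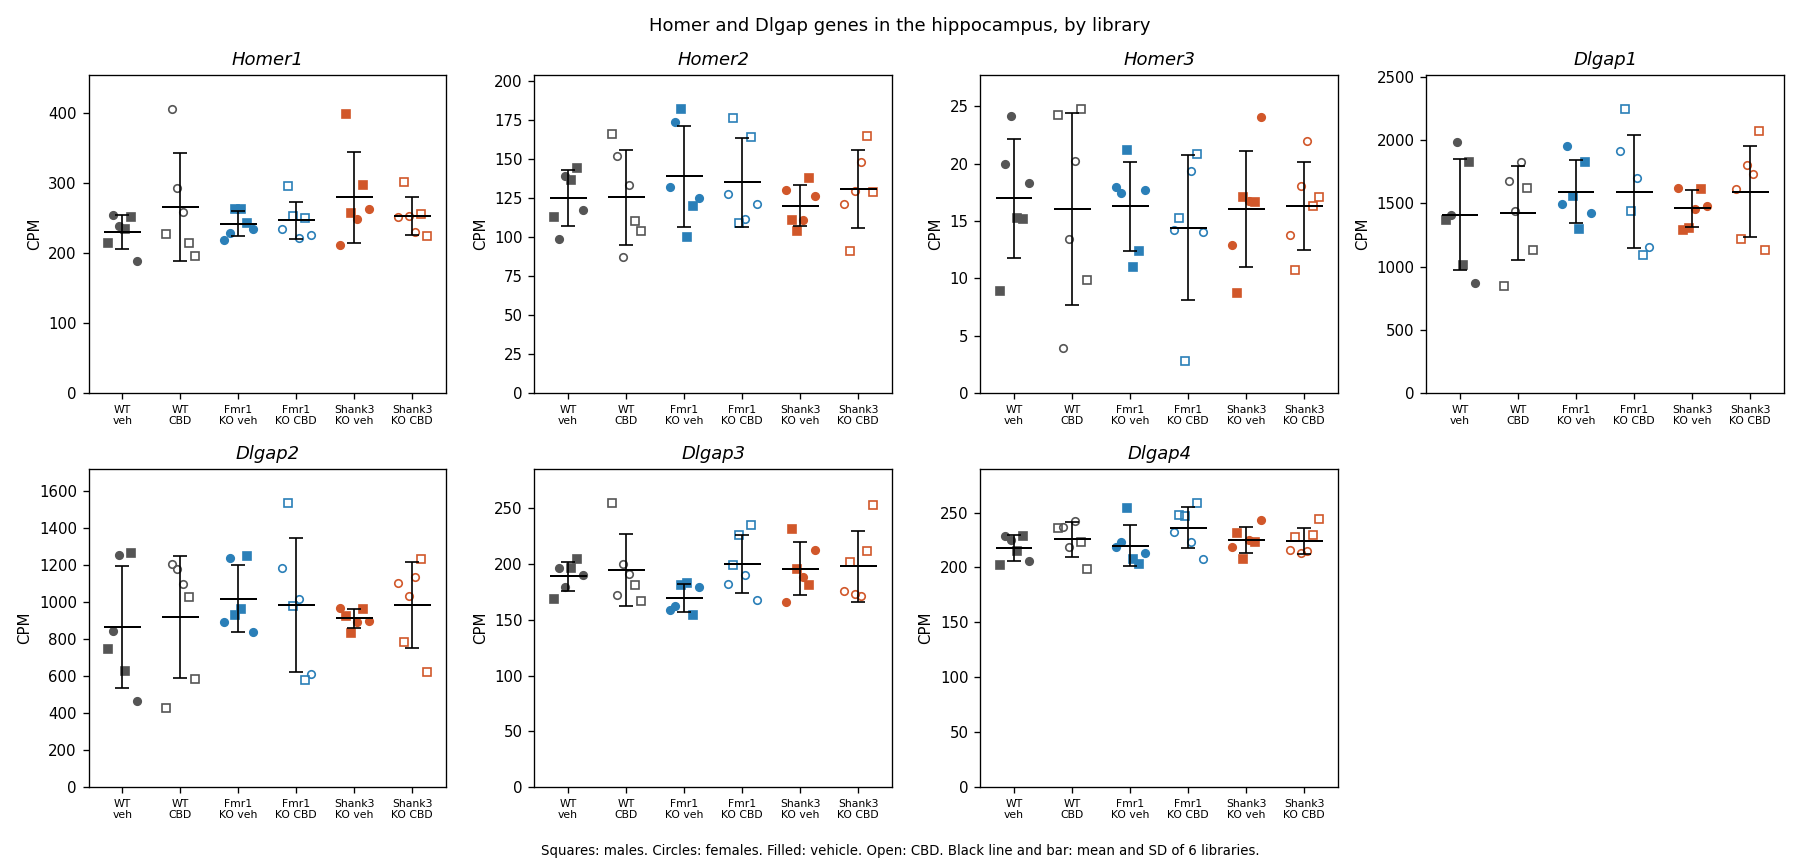
Homer1 to Homer3 and Dlgap1 to Dlgap4 in CPM (y axes, from 0) for each of 36 libraries by genotype and treatment, with the mean and SD of 6 libraries per group in black. The groups overlap in all 7 panels, and single libraries stand apart for Homer1 (398.6 and 405.4 CPM) and for Homer3 (3.95 and 2.83 CPM).

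FMRP, the product of Fmr1, is known to bind many synaptic messenger RNAs. In Fmr1 KO against WT none of the 10 scaffold genes was called. This held in edgeR under vehicle (0 of 10 against 0.0283% of all genes), under CBD (0 of 10 against 0.0331%) and over both treatments (0 of 10 against 0.0378%), as well as in DESeq2 and limma voom. At such shares no call among 10 genes says nothing about them. No member had an unadjusted p under 0.05 in these 3 edgeR comparisons, against 2.24%, 7.4% and 4.79% of all genes. The log2 fold changes over both treatments ran from -0.12 ± 0.24 for Homer3 to 0.18 ± 0.17 for Dlgap2. Dlgap1 stood at 0.17 ± 0.14 and Homer2 at 0.13 ± 0.11. Dlgap3 under vehicle was -0.16 ± 0.093 (edgeR, unadjusted p = 0.101), with 154.5 to 182.8 CPM (median 170.5) in Fmr1 KO beside 168.4 to 204.3 CPM in WT. The Fmr1 KO and Shank3 KO comparisons share the WT libraries.

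CBD against vehicle gave no called member in any genotype. In edgeR 0 of 10 were called in WT, in Fmr1 KO and in Shank3 KO, where 0% of all genes were called, and DESeq2 and limma voom called none of the 10 either. With an unadjusted p under 0.05 there were 0 members in WT, 1 in Fmr1 KO and 0 in Shank3 KO, against 2.68%, 2.64% and 4.41% of all genes. The 1 was Dlgap3, with 154.5 to 182.8 CPM (median 170.5) under vehicle and 168.1 to 234.9 CPM (median 194.6) under CBD. Its log2 fold change was 0.23 ± 0.093 (edgeR, unadjusted p = 0.0184, adjusted p = 1). Averaged over the genotypes 0 of 10 were called against 0.0189% of all genes. The members' values there ran from -0.07 ± 0.19 for Homer3 to 0.12 ± 0.098 for Shank1. The CBD effect did not differ between Shank3 KO and WT or between Fmr1 KO and WT for any member at the threshold, with 0 of 10 called, 0 with an unadjusted p under 0.05 and 0% of all genes called in both. Of all genes 4.74% (Shank3 KO) and 3% (Fmr1 KO) had an unadjusted p under 0.05 there. Homer1 had the smallest unadjusted p of the members, 0.0702 in Shank3 KO (edgeR), with a difference of -0.36 ± 0.19.

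Shank3 and Homer1 had CBD values of opposite sign in the sexes, which also differ in dose. In males, at 5 mg/kg, the CBD against vehicle log2 fold change of Shank3 was 0.24 ± 0.094 (edgeR, unadjusted p = 0.0172, adjusted p = 0.709), and 0 of 10 members were called against 0% of all genes. At an unadjusted p under 0.05 there were 2 of 10, against 6.97% of all genes. In females, at 50 mg/kg, the Shank3 value was -0.09 ± 0.094, and 0 of 10 were called against 0.0142% of all genes. At an unadjusted p under 0.05 there were 0 of 10, against 3.07% of all genes. The difference of females minus males was -0.32 ± 0.13 for Shank3 (edgeR, unadjusted p = 0.0207) and 0.29 ± 0.12 for Homer1 (edgeR, unadjusted p = 0.0236), both with an adjusted p of 0.659. For that difference 0 of 10 members were called against 0% of all genes. The 2 libraries with the highest Homer1 were WT CBD replicate 2, a female, and Shank3 KO vehicle replicate 2, a male. Both lie on the side that raises the Homer1 difference, and the value without both was not tested. Shank3 over the 9 males given CBD ran from 170.0 to 390.6 CPM with a median of 273.4, beside 161.1 to 314.7 CPM and 234.5 in the 9 males given vehicle. The 2 highest of those CBD males, WT replicate 1 and Fmr1 KO replicate 5, had the 2 lowest shares of counts in intron-rich genes (described below) among CBD libraries, 7.81% and 9.46%. With that share as a covariate the Shank3 difference of females minus males was -0.18 and not called, and without Fmr1 KO CBD replicate 5 the male value was 0.15 and not called. Of the microglial markers 5 of 5 tested were positive under CBD in males (median log2 fold change 0.15, none called, against 52.2% of all genes positive), with Tmem119 at 0.39 ± 0.15 (edgeR, unadjusted p = 0.0116, adjusted p = 0.709). In females minus males 2 of 5 were positive, with Tmem119 at -0.54 ± 0.21 (edgeR, unadjusted p = 0.0143, adjusted p = 0.659). The microglial score ran from 4.45 to 5.01 in CBD males and from 4.37 to 4.72 in vehicle males, and P2ry12 and C1qb were listed at 0 in every library. In CBD males the striatal (0 of 11), oligodendrocyte (0 of 10), choroid plexus (0 of 9) and ependymal (0 of 5) lists held no positive value. The part of these markers in the Shank3 values was not tested.

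Between females and males no scaffold gene passed the threshold, with 0 of 10 called in edgeR, DESeq2 and limma voom, against 0.0850% of all genes in edgeR. At an unadjusted p under 0.05 there was 1 of 10, against 7.2% of all genes. That gene was Dlgap3, with 158.9 to 212.8 CPM (median 179.2) in 18 females and 154.5 to 255.1 CPM (median 197.6) in 18 males. The female against male log2 fold change was -0.15 ± 0.054 (edgeR, unadjusted p = 0.00808, adjusted p = 0.560).

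Levels were ordered within WT vehicle per kilobase of annotated span, the length the counts cover. Shank1 led with a median of 23.3 CPM per kb (19.1 to 26.9), followed by Shank3 at 4.41 (3.87 to 4.83), Dlgap3 at 2.85 (2.48 to 3.01) and Homer1 at 2.24 (1.79 to 2.41). No pair of neighbours among these 4 overlapped. Below them Dlgap1 (mean 1.66 CPM per kb of span), Homer3 (1.47), Dlgap4 (1.45), Homer2 (1.17), Dlgap2 (1.15) and Shank2 (libraries from 0.909 to 1.09) followed, each overlapping the gene above it in the order of means. Per kilobase of joined exons the order was another, with Dlgap2 (mean 141 CPM per kb of exons), Shank1 (109.8) and Dlgap1 (78.9) at the top and Homer3 (4.93) at the bottom. Exons make up 0.818% of the Dlgap2 span and 20.9% of the Shank1 span.

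Beyond the group means, the scaffold genes varied together from library to library in blocks. Residuals of log2 CPM from the means of genotype, treatment and sex were correlated over 36 libraries for all 45 pairs, with a permutation test that shuffled libraries within those cells. At an adjusted p under 0.05 there were 12 pairs, all positive. Pairs of other genes were not counted beside them, so the blocks are not shown to be particular to the scaffold genes. Genes outside the 3 families came as close, such as Tnr with Dlgap1 (r = 0.97) and Man2a2 with Shank3 (r = 0.94). Dlgap1 and Dlgap2 were the closest pair, with Pearson r = 0.95 (permutation adjusted p = 0.0009), Spearman rho = 0.88 (adjusted p = 0.00045) and r = 0.94 without the 2 outermost libraries. Their ratio was 1.64 in the median library (1.22 to 1.98), and it varied by 10.7% (coefficient of variation) while Dlgap1 varied by 22.2% and Dlgap2 by 27.0%. Shank2 followed them, at r = 0.70 with Dlgap1 (rho = 0.71, permutation adjusted p = 0.0101) and r = 0.65 with Dlgap2 (rho = 0.66, adjusted p = 0.0134), 0.68 and 0.63 without the 2 outermost libraries.

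A second block held Shank1, Shank3, Homer2, Homer3, Dlgap3 and Dlgap4, though not every pair among these genes passed. The 5 pairs given here include none with Homer2. Shank1 went with Dlgap4 (r = 0.73, rho = 0.70, permutation adjusted p = 0.00473), with Shank3 (r = 0.70, rho = 0.62, adjusted p = 0.0127) and with Homer3 (r = 0.67, rho = 0.70, adjusted p = 0.0127). Shank3 went with Homer3 (r = 0.73, rho = 0.59, permutation adjusted p = 0.0221) and with Dlgap3 (r = 0.62, rho = 0.66, adjusted p = 0.0127). Without the 2 outermost libraries these 5 had r between 0.54 and 0.70. Homer1 was in none of the 12 pairs. With the share of intron-rich genes removed as well, 20 of 45 pairs passed, all positive. With the striatal, choroid plexus and dentate scores removed instead 15 passed, 12 positive and 3 negative. The negative pairs were Shank3 with Dlgap2 (r = -0.74, rho = -0.66, permutation adjusted p = 0.00113), Shank3 with Dlgap1 (r = -0.73, rho = -0.71, adjusted p = 0.00075) and Dlgap1 with Dlgap3 (r = -0.55, rho = -0.54, adjusted p = 0.0414), which without the 2 outermost libraries were -0.70, -0.70 and -0.44.

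**Figure D4:**
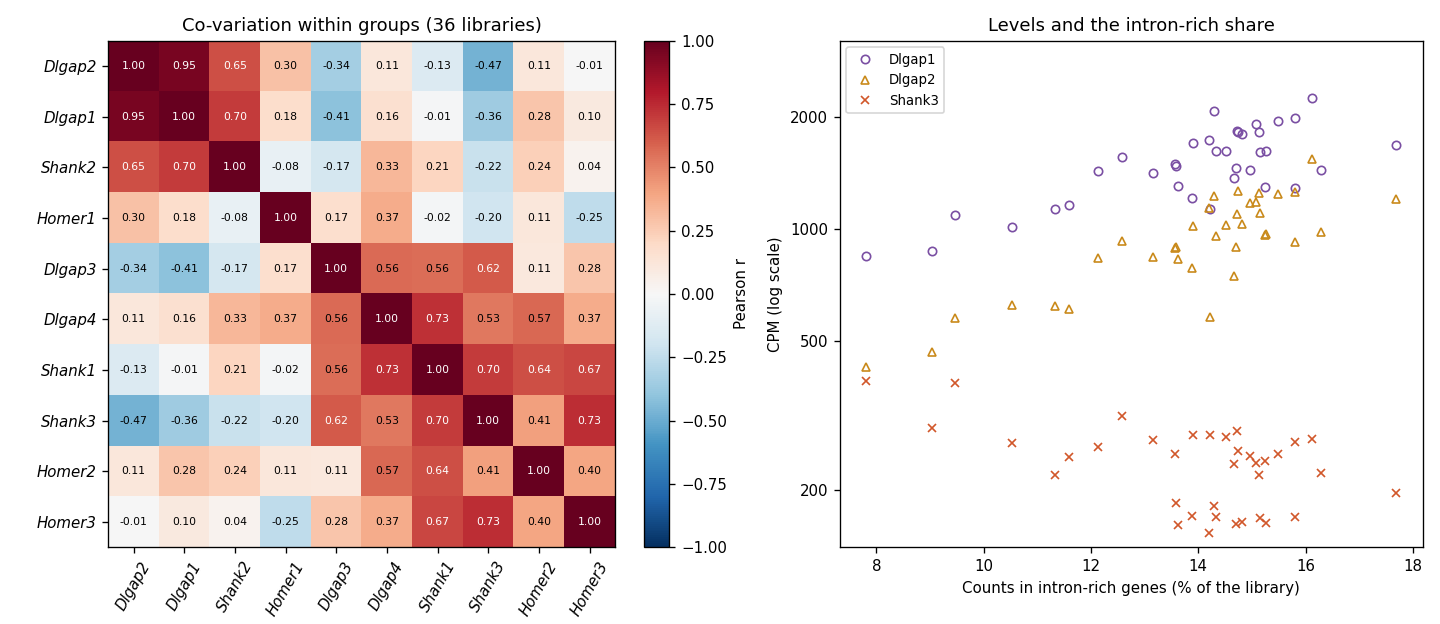
Left, Pearson r between residual log2 CPM of each pair of scaffold genes over 36 libraries, with group means removed. Right, CPM (log axis) of Dlgap1, Dlgap2 and Shank3 against the percentage of a library's counts in intron-rich genes, 1 point per gene and library; Dlgap1 and Dlgap2 are lowest in the library at 7.81% and Shank3 is highest there.

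The blocks were set beside library features, 160 relations in all. The intron-rich share is the percentage of counts in 566 genes whose annotated exons cover under 2% of their span, members left out. It ran from 7.81% in WT CBD replicate 1 to 17.7% in WT CBD replicate 2, and its group medians lay between 13.9% and 14.6%. Dlgap2 (r = 0.83, rho = 0.75, permutation adjusted p = 0.00304) and Dlgap1 (r = 0.76, rho = 0.67, adjusted p = 0.00843) were higher where it was higher. Shank3 was lower there (r = -0.75, rho = -0.74, permutation adjusted p = 0.00378). Without the 2 libraries farthest from the median these were 0.79, 0.71 and -0.63. With that share as a covariate the Shank3 KO against WT log2 fold change of Shank3 was -0.60 over both treatments (edgeR, adjusted p = 1.67e-08).

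Markers of other cell types went with some members of these blocks, not with all. Shank3 was higher with the microglial markers (r = 0.76, rho = 0.77, permutation adjusted p = 0.0016) and with the astrocyte markers (r = 0.61, rho = 0.53, adjusted p = 0.0300). The interneuron markers went against Dlgap1 (r = -0.78, rho = -0.76, permutation adjusted p = 0.00107), Dlgap2 (r = -0.71, rho = -0.71, adjusted p = 0.00304) and Shank2 (r = -0.69, rho = -0.69, adjusted p = 0.00304). Without the 2 outermost libraries these 5 were 0.67, 0.58, -0.73, -0.65 and -0.64. The astrocyte markers went against Dlgap1 (r = -0.56, permutation adjusted p = 0.0356) and Dlgap2 (r = -0.62, permutation adjusted p = 0.014). The microglial markers also went against Dlgap2 (r = -0.62, permutation adjusted p = 0.0289). Beside Shank3, they went with Dlgap3 (r = 0.61), Shank1 (0.58) and Homer3 (0.56), at permutation adjusted p of 0.0225, 0.0421 and 0.044. The neuron markers went with Dlgap1 (r = 0.69), Dlgap2 (0.66), Shank2 (0.59) and Dlgap4 (0.59), at permutation adjusted p of 0.00674, 0.0158, 0.0119 and 0.0276. The mitochondrial share of counts went against Homer2 (r = -0.72, permutation adjusted p = 0.00304) and Shank3 (r = -0.55, permutation adjusted p = 0.0329). In all 32 of the 160 relations passed the threshold, a count that was not set beside that of other genes.

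Several scaffold genes followed markers of a hippocampal subfield. Homer3 went with the CA3 pyramidal markers (Iyd, Grik4, Nectin3 and Bok) at r = 0.89 (rho = 0.79, permutation adjusted p = 0.0008) and with the dentate granule markers at r = 0.82 (rho = 0.68, adjusted p = 0.0144). The 2 libraries with the lowest Homer3 also had the lowest CA3 scores, 4.13 and 3.98, and without the 2 outermost libraries r was 0.80 for CA3 and 0.67 for the dentate. Shank1 went with the CA1 pyramidal markers at r = 0.82 (rho = 0.76, permutation adjusted p = 0.00304) and against the thalamic markers at r = -0.81 (rho = -0.75, permutation adjusted p = 0.0008), 0.78 and -0.74 without the 2 outermost libraries. Both adjusted p of 0.0008 rest on a raw p of 1e-05, the smallest these permutations can give. Homer2 went with the CA1 markers at r = 0.75 (rho = 0.75, permutation adjusted p = 0.00304). Without the 2 outermost libraries that r was 0.69. Dlgap4 also went with the CA1 markers (r = 0.56, permutation adjusted p = 0.0099) and against the thalamic markers (r = -0.68, permutation adjusted p = 0.0056). Homer3 went against the thalamic markers too (r = -0.47, permutation adjusted p = 0.0253). Homer2 and Shank1 were lower where striatal markers were higher, at r = -0.68 (rho = -0.65, permutation adjusted p = 0.00674) and r = -0.66 (rho = -0.65, permutation adjusted p = 0.0135), both -0.64 without the 2 outermost libraries. Shank2 was lower there too (r = -0.50, permutation adjusted p = 0.0436), though its rho of -0.42 did not pass. Homer1 went with the mean of 12 immediate early genes at r = 0.51 (rho = 0.57, permutation adjusted p = 0.0158, r = 0.49 without the 2 outermost libraries). No other member reached the threshold with those genes.

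**Figure D5:**
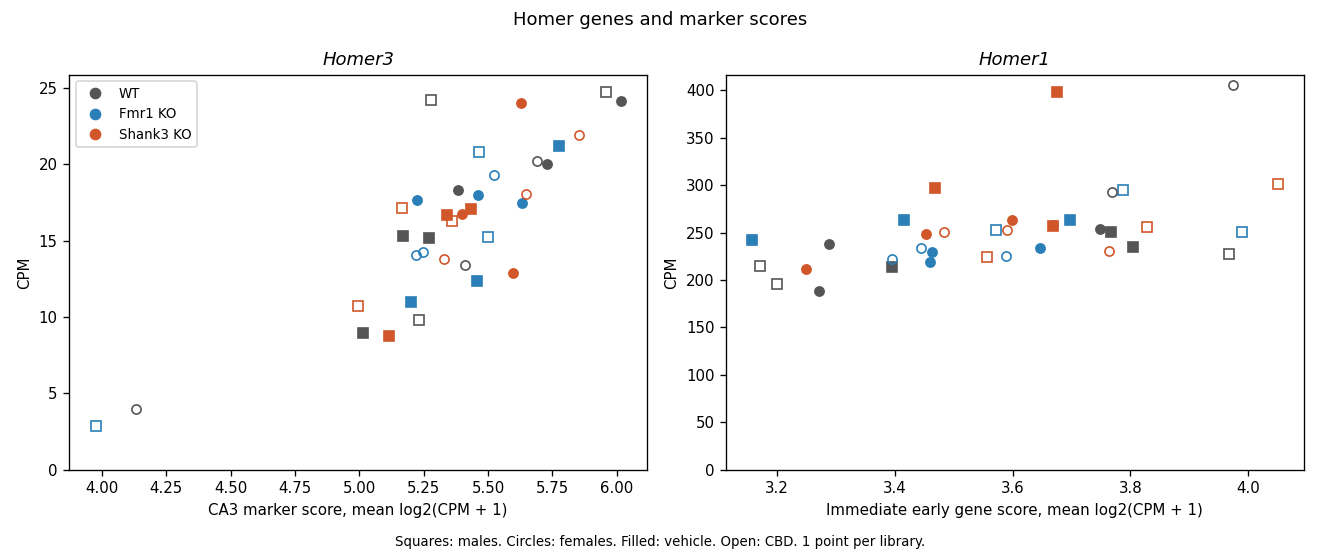
Left, Homer3 in CPM (y axis, from 0) against the mean log2(CPM + 1) of CA3 markers, and right, Homer1 in CPM against the same mean of 12 immediate early genes, 1 point per library. The 2 libraries with the lowest CA3 scores, 4.13 and 3.98, have the lowest Homer3, and 2 libraries at 398.6 and 405.4 CPM stand above the others for Homer1.

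Among 17450 genes compared, those named here had residuals among the most like a member's, by Pearson r over 36 libraries and as a description only. For Shank1 they were Speg (0.94) and Snph (0.92). For Shank3 they were Man2a2 (0.94), Rhob (0.92) and Ipo13 (0.92), and for Shank2 Mindy4, Skint5 and Trio (0.79 each). For Homer1 they were Ppp2r5a (0.80), Rock2 (0.78) and Gm41031 (0.76). For Homer2 they were Mfsd4a (0.86), Rara (0.84) and Hmbox1 (0.82), and for Homer3 Golm1 (0.96), Hpca (0.95), which encodes the calcium sensor hippocalcin, and Mast3 (0.94). For Dlgap1 they were Tnr and Dab1 (0.97 each) and for Dlgap2 Unc79, Erc2 and Galnt18 (0.96 each). For Dlgap3 they were Dusp8 (0.86), Kcnh3 (0.85) and Kat2a (0.85), and for Dlgap4 Aak1 (0.81), Trak1 (0.79) and Hectd4 (0.79).

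No binding partner of these scaffolds was called in any comparison, in which few genes of any kind were called. In Shank3 KO against WT over both treatments 0 of 13 MAGUK and adaptor scaffolds, 0 of 9 Homer-bound receptors and calcium channels, 0 of 11 Shank-bound actin and spine regulators and 0 of 11 Dlgap-bound and signalling genes were called in edgeR, against 0.0614% of all genes, a share at which no call among 44 genes says nothing about them. None of the 44 had an unadjusted p under 0.05 there, against 2.13% of all genes, and their median log2 fold changes were -0.01, 0.05, -0.02 and -0.04. Among the first list the smallest p belonged to Cask (0.09 ± 0.062), Lin7c (-0.08 ± 0.065) and Lin7a (0.12 ± 0.11). Among the receptors it belonged to Agap2 (0.23 ± 0.16), Grm5 (0.11 ± 0.10), which encodes the receptor mGluR5, and Frmpd4 (0.13 ± 0.13). Among the Shank-bound genes it belonged to Lrrc7 (0.12 ± 0.095), which encodes densin-180, Lzts3 (-0.13 ± 0.11) and Sptan1 (-0.05 ± 0.059). Among the Dlgap-bound genes it belonged to Nlgn1 (0.16 ± 0.14), the synaptic adhesion protein neuroligin 1, Ppp1r9a (0.08 ± 0.069) and Camk2b (-0.12 ± 0.12). Of 12 immediate early genes 0 were called, with Btg2 (-0.14 ± 0.11), Ier2 (0.09 ± 0.14) and Fosb (-0.07 ± 0.15) at the smallest p. Under CBD, averaged over the genotypes, 12 of 12 immediate early genes had positive values, against 54.3% of all genes, with a median log2 fold change of 0.18, beside 0.01 for all genes. None of the 12 was called, against 0.0189% of all genes, and 1 had an unadjusted p under 0.05, against 3.16% of all genes. Homer1 stood at 0.03 ± 0.077.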

How the data were processed

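The tools named in the submitters' processing notes are FastQC, STAR 2.7.11b, featureCounts 2.0.8, DESeq2 and edgeR, with the build GRCm39. The deposited table holds raw counts per gene, with no normalization. Symbols came from a GENCODE annotation of GRCm38, and symbol-bearing identifiers held 99.0% of the counts. The deposited length lay within 5% of the gene span for 98.14% of 20315 protein-coding genes that have introns.

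Counts were analysed with edgeR 4.0.16 (R 4.3.3). filterByExpr left 21172 genes, scaled by TMM. A quasi-likelihood model of all 36 libraries had 1 coefficient per genotype and treatment plus sex, and a second had 1 per genotype, treatment and sex. P-values are two-sided and adjusted by Benjamini-Hochberg over all genes tested. The method was tested on simulated data. Correlations used 100000 shuffles within genotype, treatment and sex, adjusted over 45 pairs or 160 relations. Alternatives are given in the closing section; limma was 3.58.1 and DESeq2 1.42.0.

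Members and lists were chosen with earlier results of these data known. Named are the 10 members, the 3 partner or activity genes per list with the smallest p in Shank3 KO against WT over both treatments, any such gene called in any comparison (0), and the 3 genes most like each member, some of which are not reported here.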

Additional observations from a re-analysis of the deposited data

Results flagged for a closer look

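In 60 groups of 6 libraries, 1 per gene and group, the highest or lowest value stood apart from the rest by more than Dixon's 95% limit in 2, and chance gives about 1 in 20. Shank3 in Fmr1 KO CBD replicate 5 was 385.5 CPM, and the gap to the next library was 0.644 of the group's range. Shank3 in Shank3 KO vehicle replicate 6 was 184.3 CPM, with a gap of 0.668 of the range. The first library had 9.46% of its counts in intron-rich genes, the lowest share of its group. The second had 13.58%, also the lowest of its group, but Shank3 KO vehicle replicate 3 was nearly the same at 13.62% and was not flagged. The part of that share in these values was not tested.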

How the results depend on the processing

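No member other than Shank3 was called in any of 47 to 49 alternative settings per comparison, and 111 of their 189 log2 fold changes changed sign in at least 1 setting. The Shank3 call over both treatments, against WT and against Fmr1 KO, held in all 49 settings. Against WT under vehicle the count of called members fell from 1 to 0 with the striatal score as a covariate, with 3 tissue scores as covariates and without the 7 libraries with high striatal markers or 5 of them (Shank3 KO vehicle replicates 2, 3 and 4 and WT CBD replicates 3 and 6). Under CBD it fell to 0 without the 5 or 7 libraries and with the compared groups alone. In males it fell to 0 with the striatal score, without the 5 or 7 libraries and with the replicate number as a block, and in females without the 5 or 7 libraries. The cause was not tested, though fewer libraries were fitted in some. Against Fmr1 KO under vehicle it rose from 0 to 1 with the compared groups alone, with the intron-rich share as a covariate, in limma voom and in DESeq2. Leaving out 1 library at a time gave 0 to 1 in that comparison, in males and in females; in the first the value was 1 without WT CBD replicate 1 or 2 or Fmr1 KO CBD replicate 5. The fits with the intron-rich share and without 7 libraries were added after seeing the data. Over all genes the count of calls moved by over 1.5 times in several comparisons, among them female against male, from 18 to 195 with the replicate block, 44 in DESeq2 and 9 under a stricter filter on low counts. In Shank3 KO against WT over both treatments it was 13, and 9 without the 7 libraries. Correlated pairs numbered 12 (all positive), 15 with 3 tissue scores (12 positive, 3 negative), 12 without the 5 libraries (all positive) and 20 with the intron-rich share (all positive). DESeq2 size factors moved the median of all genes by at most 0.0068 log2. Over 90 same-numbered pairs of libraries the correlation of deviations had a median of 0.013 and exceeded 0.1 in 38, so the numbers were not taken as pairs; with the replicate block Shank3 stayed called (value 1) over both treatments. Every member but Dlgap3 overlaps other annotated genes, so without a strand setting reads of shared stretches may be split or lost. Gm15609, antisense to Shank3, held 0 counts in all, whereas the gene overlapping Homer3 held 8269. At the depth of Homer3 changes up to 1.36-fold lay within its interval.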
